A study of Homo sapiens with 24 samples.

Results

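The nuclear-encoded subunits of the respiratory chain and of ATP synthase were followed in L1236 cells, an established Hodgkin lymphoma (HL) line of B cell origin, after knockdown (KD) of an NF-κB dimer. Members were the transcript clusters (the probe groups of an array) whose only gene symbol began with NDUFA, NDUFB, NDUFC, NDUFS, NDUFV, UQCR, SDHA, SDHB, SDHC, SDHD, COX4, COX5, COX6, COX7, COX8 or ATP5. Of 100 such clusters, 11 for assembly factors, 2 for pseudogenes, 1 for a divergent transcript (NDUFV1-DT) and 1 for the ATP synthase inhibitor ATP5IF1 were left out. This gave 85 clusters for 78 genes, of 19460 clusters with a single symbol. They comprised 37 clusters of complex I, 5 of complex II, 7 of complex III, 18 of complex IV and 18 of ATP synthase.

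The respiratory chain lies in the inner mitochondrial membrane. Complex I (NADH dehydrogenase) and complex II (succinate dehydrogenase) pass electrons to ubiquinone, complex III passes them to cytochrome c, and complex IV (cytochrome c oxidase) passes them to oxygen, while complexes I, III and IV pump protons and ATP synthase uses the return of the protons to make ATP. The nuclear genes of these subunits are housekeeping genes whose promoters are known for sites of NRF1, of the ETS factor GABPA and of YY1, and hypoxia-inducible factor (HIF) is known to exchange the COX4I1 isoform for COX4I2. Some core subunits are encoded in mitochondrial DNA, and those lie outside the symbol prefixes used here and were not followed.

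RNA of 24 cultures was measured, 12 in each of 2 experiments that were run and normalised apart. In experiment 1, p50/RelA KD cells received siRNA against NFKB1 (encoding p105/p50) at 1 µM for 3 days and against RELA at 500 nM for 2 days, and control 1 cells received control siRNA. In experiment 2, p52/RelB KD cells received siRNA against RELB at 1 µM for 3 days and against NFKB2 (encoding p100/p52) at 500 nM for 2 days, and control 2 cells received control siRNA. Cells were harvested 1 day after the siRNA medium was replaced, and every arm held 6 arrays, from 2 siRNA sequences in 3 biological replicates. The 8 targeting siRNAs are shown because each KD rests on them, in the order in which the study lists them for each gene, 5′ to 3′. The study does not say which listed siRNA is sequence 1 or sequence 2 of the arrays, so the numbers 1 and 2 below give only the list order.
NFKB1 siRNA 1: ccaaaguauaaagauauua
NFKB1 siRNA 2: ggcucauguuuacagcuuu
NFKB2 siRNA 1: ucauugagcagauagucua
NFKB2 siRNA 2: cugucaagaucuguaacua
RELA siRNA 1: cuuccaaguuccuauagaa
RELA siRNA 2: ggauugaggagaaacguaa
RELB siRNA 1: guaggauucggaaaagauu
RELB siRNA 2: uggagaucaucgacgagua

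Depletion of the subunit proteins was shown in the study by Western blot, with 2 siRNAs for each subunit. On the arrays, which measure RNA alone, the targeted mRNAs were reduced unequally. NFKB1 was at 26.5% of control 1 and RELA at 38.1% in p50/RelA KD cells, and NFKB2 was at 39.4% of control 2 in p52/RelB KD cells, whereas RELB mRNA remained at 82.0% of control 2. Untargeted NFKB2 was also called lower after p50/RelA KD, with a log2 difference of -0.19, and untargeted NFKB1 was called higher after p52/RelB KD, with 0.15. All 10 Hodgkin and Reed-Sternberg markers lay at 6 or more in over 50% of the arrays of both experiments, as did 1 of 7 T and NK cell clusters in experiment 1 and 5 in experiment 2, 2 and 3 of 5 myeloid clusters, and 4 of 6 fibroblast and endothelial clusters in each. The summed log2 level of the T and NK clusters ran over 36.6-38.2 in p50/RelA KD arrays and 36.1-38.1 in control 1 arrays, and over 41.4-44.5 in p52/RelB KD arrays and 41.4-42.3 in control 2 arrays, and its part in the results was not tested. The sum of the 10 Hodgkin and Reed-Sternberg markers was 98.2-98.9 in p50/RelA KD arrays and 99.7-101.3 in control 1 arrays, and 98.8-99.7 in p52/RelB KD arrays and 100.4-101.7 in control 2 arrays. These sums were lower in all KD arrays and did not overlap between the arms, and their part in the results was not tested. The markers include CCL22 and CD40, which the study counts among its targets activated by both dimers. The sum is therefore not a measure of cell identity alone. The array of p52/RelB KD sequence 2 replicate 3 stood apart from the other 11 of its experiment, so its calls, counts and medians, and the differences that rest on it, are also given without it.

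All values below are log2 expression values or log2 differences, KD minus control. Clusters at 6 or more in over 50% of the 12 arrays of an experiment were tested with limma, with the replicate as a block. A cluster was called when its Benjamini-Hochberg adjusted p, over all clusters tested, was below 0.05 and the expression difference was at least 10%. Of the 85 member clusters, 81 passed the filter in both experiments, for 75 genes: 36 of complex I, 5 of complex II, 7 of complex III, 15 of complex IV and 18 of ATP synthase. The other 4 were the isoforms COX6B2, COX7B2 and COX8C and the second cluster of NDUFS4. COX6B2, a testis isoform, averaged 5.02 ± 0.11 in p50/RelA KD arrays and 4.94 ± 0.15 in control 1 arrays (SD, n = 6 each), and none of the 4 clusters reached 6 in more than 4 arrays of an experiment.

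After p50/RelA KD, 0 of the 81 clusters were called lower, 0 higher and 0 in either direction. Of all 14672 clusters tested, 0.825% were called lower, 0.245% higher and 1.07% either way, and without the 10% minimum the figures were again 0 of 81 and 1.07%. The members' median difference was -0.00, against 0.00 over all clusters, with 41 members below 0 and 40 above. The medians by complex were -0.01 for complex I, 0.01 for complex II, -0.01 for complex III, -0.01 for complex IV and 0.00 for ATP synthase. The absolute difference had a median of 0.02 in the members and 0.04 in all clusters, beside a median SE of 0.04 and 0.05. The median member thus differed by less than its error.

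The 95% confidence intervals give, cluster by cluster, the range of mRNA differences that the arrays leave possible for the KD as reached. They count the 2 siRNA sequences of a replicate as separate samples and are not adjusted for the number of clusters. RELB mRNA remained at 82.0% of control 2, so they do not bound the effect of a full loss of p52/RelB. After p50/RelA KD the interval of all 81 members lay within a 1.25-fold change in either direction, as did 97.4% of all clusters, and that of 53 members (65.4%) lay within a 1.1-fold change, as did 40.7% of all clusters. After p52/RelB KD the interval of 80 members lay within 1.25-fold, as did 88.4% of all clusters, and that of 35 members (43.2%) within 1.1-fold, as did 21.0% of all clusters. COX7B was the exception at 1.25-fold, and its interval lay within 1.5-fold as those of the other members did. Without the array that stood apart, 81 members lay within 1.25-fold and 53 (65.4%) within 1.1-fold, as did 93.9% and 46.4% of all clusters.

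**Figure D1:**
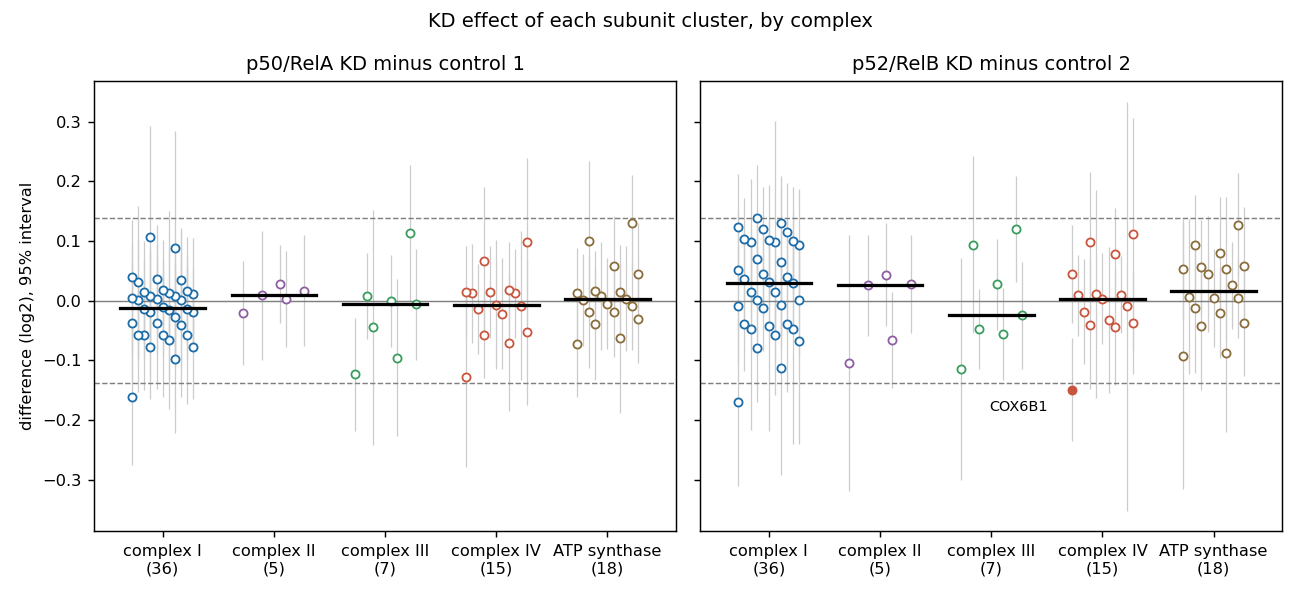
Log2 difference, KD minus control, of each of the 81 tested subunit clusters by complex after p50/RelA KD and p52/RelB KD, 1 point per cluster, with the median of each complex. The points run over -0.16 to 0.13 after p50/RelA KD and -0.17 to 0.14 after p52/RelB KD, and the medians lie between -0.03 and 0.03.

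Single subunits after p50/RelA KD did not pass the adjusted threshold. At an unadjusted p below 0.05, 4 members remained (4.94%), 3 lower and 1 higher, against 10.5% of all clusters. In complex I, the accessory subunit NDUFA13 (GRIM-19) had 8.22, 8.30, 8.11, 8.15, 8.03 and 8.25 in p50/RelA KD arrays, and 8.27, 8.29, 8.29, 8.26, 8.50 and 8.42 in control 1 arrays. The arms overlapped through 1 KD array of replicate 1, at 8.30, and the difference was -0.16 ± 0.05 (SE, n = 6 each, limma adjusted p = 0.233), with -0.02, -0.15 and -0.32 in the 3 replicates. In complex III, the core protein UQCRC1 had 8.81, 8.77, 8.77, 8.72, 8.84 and 8.60 in p50/RelA KD arrays, and 8.90, 8.83, 8.89, 8.95, 8.81 and 8.87 in control 1 arrays. The control arrays at 8.83 and 8.81 lay inside the KD range, and the difference was -0.12 ± 0.04 (limma adjusted p = 0.287).

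In ATP synthase, ATP5F1D, the delta subunit of the central stalk, had 10.53, 10.45, 10.60, 10.66, 10.48 and 10.44 in p50/RelA KD arrays, against 10.42, 10.40, 10.38, 10.42, 10.38 and 10.38 in control 1 arrays. Every KD array lay above every control array, and the difference was 0.13 ± 0.04 (SE, n = 6 each, limma adjusted p = 0.145). NDUFV3, an accessory subunit of the NADH-binding module of complex I, had 9.63, 9.67, 9.71, 9.72, 9.68 and 9.67 in p50/RelA KD arrays, against 9.73, 9.75, 9.74, 9.78, 9.75 and 9.72 in control 1 arrays. These 2 arms also did not overlap, by a narrow margin, with a difference of -0.07 ± 0.03 (limma adjusted p = 0.458). ATP5F1D and NDUFV3 were the 2 members without overlap (2.47%), against 1.11% of all clusters. The difference had the same sign in all 3 replicates for 20 members (24.7%), 14 lower and 6 higher, against 28.2% of all clusters.

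The remaining complexes showed the same small values after p50/RelA KD. Complex II ran over -0.02 (SDHA, the flavoprotein) to 0.03 (SDHC, a membrane anchor). In complex III the ubiquinone-binding subunit UQCRB had the highest difference, 0.11, and in complex IV the lowest and highest were those of 2 tissue-type isoforms, COX4I2 (-0.13 ± 0.07) and COX7A1 (0.10). For complex I the highest values were those of the 2 clusters of NDUFV2, a core iron-sulfur subunit, at 0.11 and 0.09, and in ATP synthase the lowest was 1 cluster of the small membrane subunit ATP5MK, at -0.07. COX4I2 had 6.62 to 6.69 in the 6 p50/RelA KD arrays, and 6.91, 6.81, 6.91, 6.40, 6.75 and 6.84 in control 1 arrays. All KD arrays lay below 5 of the 6 control arrays, and without the control array at 6.40 (sequence 2 replicate 2) COX4I2 was called lower, at -0.21 (limma adjusted p = 0.0204).

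After p52/RelB KD, 1 of the 81 clusters was called lower and 0 higher. Over all 16101 clusters tested, 5.75% were called lower, 3.93% higher and 9.68% either way, against 1.23% of the members. The called subunit was COX6B1, which links the 2 monomers of complex IV on the intermembrane side. COX6B1 had 11.83, 11.84, 11.79, 11.80, 11.97 and 11.81 in p52/RelB KD arrays, against 12.09, 12.001, 11.87, 11.92, 11.99 and 12.06 in control 2 arrays. The arms overlapped through the KD array of sequence 1 replicate 3, at 11.97, and the other 5 KD arrays lay below all control arrays. The difference was -0.15 ± 0.04 (SE, n = 6 each, 95% confidence interval -0.23 to -0.06, limma adjusted p = 0.0319), which is 90.2% of control 2 and close to the 10% minimum.

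The fall of COX6B1 was seen at -0.21, -0.10 and -0.14 in the 3 replicates and at -0.13 and -0.17 for sequences 1 and 2. Its difference ran over -0.18 to -0.12 in 26 alternative analyses, but the limma adjusted p was as high as 0.531 with sequence 2 alone and the call was lost in 19 of them. Leaving out any single array but control 2 sequence 1 replicate 2, control 2 sequence 1 replicate 3 or KD sequence 1 replicate 3 lost it, with a limma adjusted p up to 0.083 or a size under 10%. In experiment 1 the difference of COX6B1 after p50/RelA KD was -0.06 ± 0.03 (limma adjusted p = 0.608). The COX6B1 promoter is shown because its gene was the called one. It covers chr19:35648073-35648372 of GRCh38.p14 on the + strand (RefSeq, 250 bases before to 50 after the start), and the capitals mark an ETS motif read on the opposite strand.
COX6B1 promoter: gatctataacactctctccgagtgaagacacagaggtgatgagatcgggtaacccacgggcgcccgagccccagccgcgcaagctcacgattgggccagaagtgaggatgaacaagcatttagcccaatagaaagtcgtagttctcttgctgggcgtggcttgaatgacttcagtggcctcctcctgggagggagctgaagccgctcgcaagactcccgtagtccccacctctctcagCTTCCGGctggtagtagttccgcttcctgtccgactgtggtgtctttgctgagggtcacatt

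Complex I held the highest values after p52/RelB KD, and 2 of its subunits passed the adjusted threshold with a size under 10%. Without the minimum difference, 3 members passed (NDUFS7, NDUFV3 and COX6B1, 3.7%), against 10.3% of all clusters. NDUFS7, a core subunit that holds the last iron-sulfur cluster before ubiquinone, had 8.91, 8.88, 8.81, 8.81, 8.87 and 8.92 in p52/RelB KD arrays, against 8.73, 8.81, 8.69, 8.69, 8.74 and 8.80 in control 2 arrays. The lowest KD arrays reached the highest control array, and the difference was 0.12 ± 0.03 (SE, n = 6 each, limma adjusted p = 0.032), with 0.12 in each of the 3 replicates. NDUFV3 had 10.09, 10.17, 10.03, 10.09, 10.06 and 9.97 in p52/RelB KD arrays, against 10.01, 9.92, 9.91, 9.93, 9.91 and 9.94 in control 2 arrays. The control array at 10.01 lay inside the KD range, and the difference was 0.13 ± 0.04 (limma adjusted p = 0.038), with 0.17, 0.13 and 0.09 in the replicates.

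The accessory subunit NDUFA3 had the highest difference of all members. NDUFA3 had 11.74, 11.65, 11.61, 11.65, 11.47 and 11.60 in p52/RelB KD arrays, against 11.48, 11.57, 11.52, 11.48, 11.35 and 11.49 in control 2 arrays. The KD array at 11.47 lay inside the range of the control arrays and the other 5 lay above it, and the difference of 0.14 ± 0.04 had a limma adjusted p of 0.0504. The promoters of NDUFS7, NDUFV3 and NDUFA3 are shown because these genes led complex I, in the same window and build as above. They cover chr19:1383657-1383956, chr21:42893059-42893358 and chr19:54102605-54102904, all on the + strand, with capitals for motifs. For NDUFS7 the capitals are, in order, 2 overlapping HIF cores on opposite strands, a κB motif, an NRF1 motif and a YY1 motif. Its κB and NRF1 motifs are read on the opposite strand and its YY1 motif on the + strand. The capitals are a HIF core for NDUFV3 and a YY1 motif for NDUFA3, both on the + strand.
NDUFS7 promoter: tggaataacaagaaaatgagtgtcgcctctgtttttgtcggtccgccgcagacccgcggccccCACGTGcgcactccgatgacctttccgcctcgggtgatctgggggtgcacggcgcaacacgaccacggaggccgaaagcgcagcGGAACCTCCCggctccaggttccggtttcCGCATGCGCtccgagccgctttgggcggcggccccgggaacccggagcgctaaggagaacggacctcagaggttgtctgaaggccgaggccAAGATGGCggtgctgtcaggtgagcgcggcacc
NDUFV3 promoter: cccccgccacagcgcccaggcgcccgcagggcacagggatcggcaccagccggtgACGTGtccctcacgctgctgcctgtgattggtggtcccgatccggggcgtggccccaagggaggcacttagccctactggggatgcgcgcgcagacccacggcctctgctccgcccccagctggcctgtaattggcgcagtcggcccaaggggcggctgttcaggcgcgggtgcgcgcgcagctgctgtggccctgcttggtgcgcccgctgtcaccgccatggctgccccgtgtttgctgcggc
NDUFA3 promoter: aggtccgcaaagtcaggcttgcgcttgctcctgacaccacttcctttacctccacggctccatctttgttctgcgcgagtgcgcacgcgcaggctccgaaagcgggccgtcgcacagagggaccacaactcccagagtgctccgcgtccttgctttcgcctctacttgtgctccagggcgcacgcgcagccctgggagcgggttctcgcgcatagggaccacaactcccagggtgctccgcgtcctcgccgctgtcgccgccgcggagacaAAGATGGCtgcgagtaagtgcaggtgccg

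**Figure D2:**
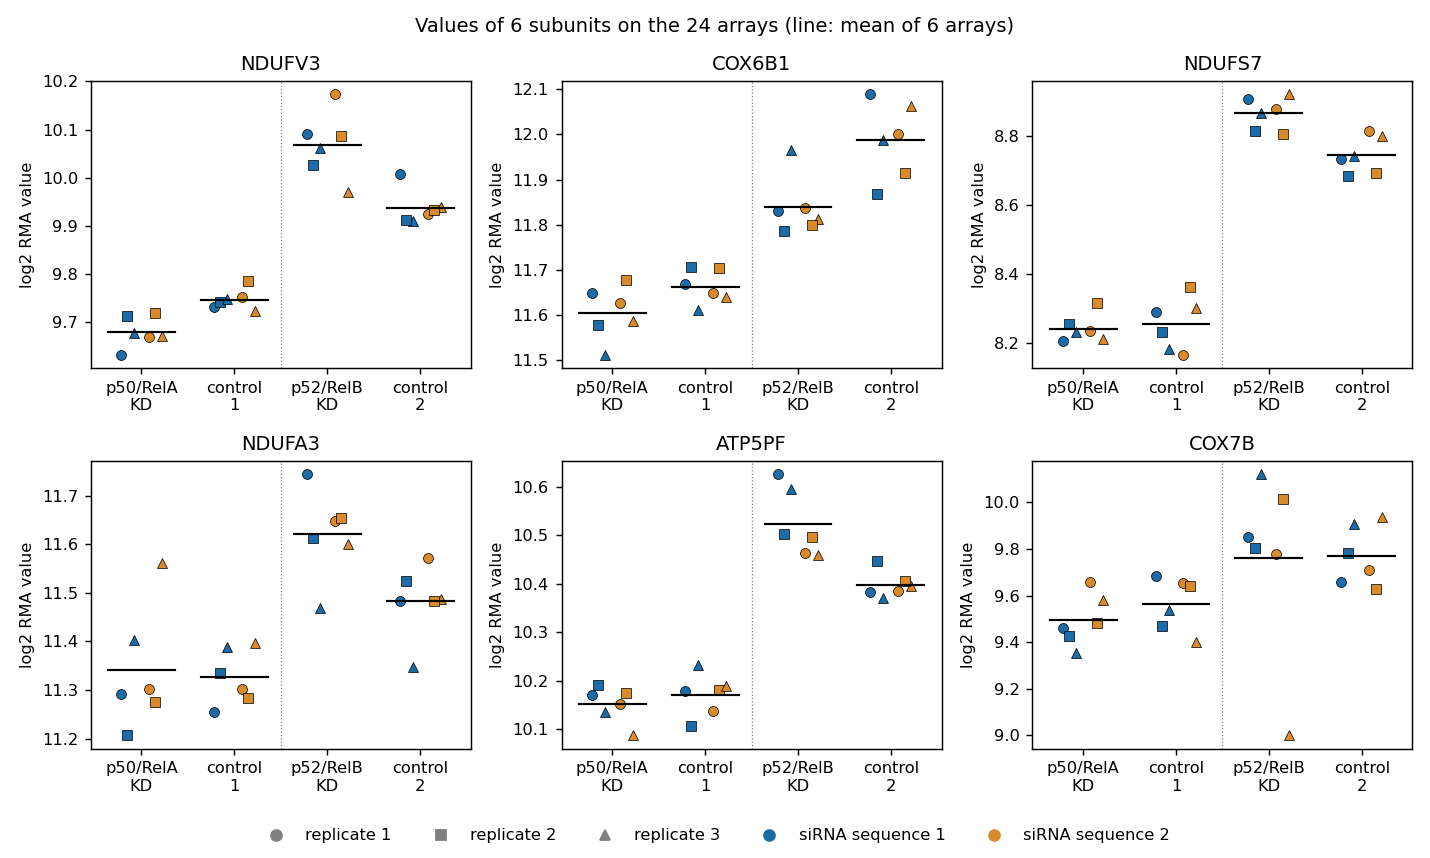
Log2 expression of NDUFV3, COX6B1, NDUFS7, NDUFA3, ATP5PF and COX7B in each of the 24 arrays, 1 point per array, with p50/RelA KD, control 1, p52/RelB KD and control 2 from left to right. COX6B1 lies lower in 5 of 6 p52/RelB KD arrays, and 1 p52/RelB KD array of COX7B lies at 8.9997, below all others.

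The 7 clusters of the 6 measured core subunits of complex I (NDUFV1, NDUFV2, NDUFS1, NDUFS3, NDUFS7 and NDUFS8, part of the conserved arm that oxidises NADH and passes on its electrons) all had differences above 0 after p52/RelB KD, over 0.04 to 0.12. Their median was 0.10, with 0.12, 0.09 and 0.03 in the 3 replicates, and none of them was called. The 29 accessory clusters had a median of 0.00 and all 16101 clusters one of 0.02, with 58.1% of all clusters above 0. The core was named as a group after these values were seen, so its shared sign is not a test. The 2 NDUFV2 clusters are of 1 gene and correlated at 0.98 over the 12 arrays. NDUFS3, another core subunit, had 0.10 ± 0.03 (limma adjusted p = 0.0568), and the 2 NDUFV2 clusters had 0.10 each. After p50/RelA KD, 4 of the 7 core clusters were above 0, with a median of 0.03. Within the core, NDUFS8 had -0.06, 0.01 and 0.25 in the replicates of p52/RelB KD. Without the array that stood apart, the 7 clusters ran over 0.03 to 0.14 with a median of 0.11, and NDUFS8 had 0.03, while the accessory clusters had a median of 0.04 and all clusters one of 0.01.

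Other accessory subunits of complex I lay on both sides of 0 after p52/RelB KD. NDUFS6 and NDUFB2 had 0.12 each (limma adjusted p = 0.074 and 0.0811). NDUFC1, an accessory subunit of the membrane arm, had the lowest value of all members: 10.11, 9.98, 10.09, 9.95, 9.91 and 9.51 in p52/RelB KD arrays, against 10.24, 10.15, 10.17, 10.08, 10.01 and 9.94 in control 2 arrays. Its lowest array was again the one that stood apart, and the difference was -0.17 ± 0.06 with it (limma adjusted p = 0.131) and -0.11 without it.

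In complexes II, III and IV and in ATP synthase, no other cluster was called after p52/RelB KD. The medians by complex were 0.03 for complex I, 0.03 for complex II, -0.03 for complex III, 0.00 for complex IV and 0.02 for ATP synthase, and 0.01 over all members. Without the array that stood apart they were 0.04, 0.02, -0.00, 0.00 and 0.03 in the same order, and 0.03 over all members. Complex II ran over -0.10 (1 cluster of SDHC) to 0.04 (1 cluster of SDHD, the other membrane anchor), and that SDHC cluster had 0.00 without the array that stood apart. The 2 core proteins of complex III, UQCRC1 and UQCRC2, had -0.05 and -0.06, and the small subunits ran over -0.11 (UQCRB) to 0.12 (UQCR10, limma adjusted p = 0.0905). The low end rested on the same array, since UQCRB had -0.02 without it. In ATP synthase, the coupling factor ATP5PF had 10.63, 10.46, 10.50, 10.50, 10.60 and 10.46 in p52/RelB KD arrays, against 10.38, 10.38, 10.45, 10.41, 10.37 and 10.40 in control 2 arrays. Every KD array of ATP5PF lay above every control array, and the difference was 0.13 ± 0.04 (SE, n = 6 each, limma adjusted p = 0.0685). ATP5PF was the 1 member without overlap (1.23%), against 5.27% of all clusters.

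The other ATP synthase subunits were grouped by position. The catalytic F1 head and central stalk (ATP5F1A, ATP5F1B, ATP5F1C and ATP5F1D) had a median of -0.02, with ATP5F1C, the gamma subunit, lowest at -0.09, which was -0.03 without the array that stood apart. The 3 genes of the proton-carrying c ring encode the same mature protein with different import sequences. Their differences were 0.06 for ATP5MC1, -0.04 for ATP5MC2 and 0.09 for ATP5MC3, and none passed the test. The peripheral stalk (ATP5PB, ATP5PD, ATP5PF and ATP5PO) had a median of 0.04 and the small membrane subunits one of 0.01, with ATP5MJ lowest at -0.09. Without the array that stood apart ATP5MJ had 0.02, and all 7 clusters of the small membrane subunits were above 0, with a median of 0.04.

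Below the call, the p52/RelB KD gave 14 members at an unadjusted p below 0.05 (17.3%), 2 lower and 12 higher, against 22.8% of all clusters. The sign was the same in all 3 replicates for 28 members (34.6%), 8 lower and 20 higher, against 43.8% of all clusters. Over all members 32 lay below 0 and 49 above (60.5%), against 58.1% of all clusters above 0, and the median absolute difference was 0.05, against 0.07 for all clusters. Without the array that stood apart, 22 members had an unadjusted p below 0.05 (27.2%), 3 lower and 19 higher, against 31.6% of all clusters. The sign was then the same in all replicates for 38 members (46.9%), against 48.4%, and the arms of 3 members did not overlap (3.7%), against 7.64%.

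Between the experiments, the KD effects differed for 1 member. NDUFV3 had 0.13 after p52/RelB KD and -0.07 after p50/RelA KD, and the difference between these effects was 0.20 ± 0.04 (SE, limma over 24 arrays, adjusted p = 0.00692). This was 1 of 81 members (1.23%), against 4.35% of all clusters. At an unadjusted p below 0.05 there were 9 members (11.1%), against 16.7% of all clusters, among them NDUFS6 (0.17), ATP5PF (0.15) and UQCRB (-0.23). The difference of NDUFV3 ran over 0.17-0.22 in 37 alternatives, and the call was lost in 6 of them. Each experiment had its own controls, scans and normalisation, so the dimer and the experiment cannot be told apart in this comparison.

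A larger share of the members' variance lay between replicates than between arms. The share between 3 replicates is expected to exceed that between 2 arms even where neither has an effect. The 2 shares are therefore best read beside those of all clusters. In experiment 1, a median of 25.5% of a member's variance lay between replicates (24.4% for all clusters) and 2.81% between the arms (5.06% for all clusters). In experiment 2 these medians were 32.7% (24.9%) and 7.87% (9.56%), and the replicate share was highest in complex II, at 50.8%, and was 40.2% in complex I. Without the array that stood apart, the medians in experiment 2 were 48.1% (33.6%) between replicates and 11.2% (11.4%) between the arms. The median difference of the members by replicate was 0.02, -0.03 and -0.00 after p50/RelA KD and 0.03, 0.04 and -0.01 after p52/RelB KD. A limma F test for KD effects that differ between replicates called 0 members in either experiment, against 0% of all clusters after p50/RelA KD and 0.00621% after p52/RelB KD, with 3 members (3.7%) and 4 members (4.94%) at an unadjusted p below 0.05, against 5.53% and 4.48% of all clusters.

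**Figure D3:**
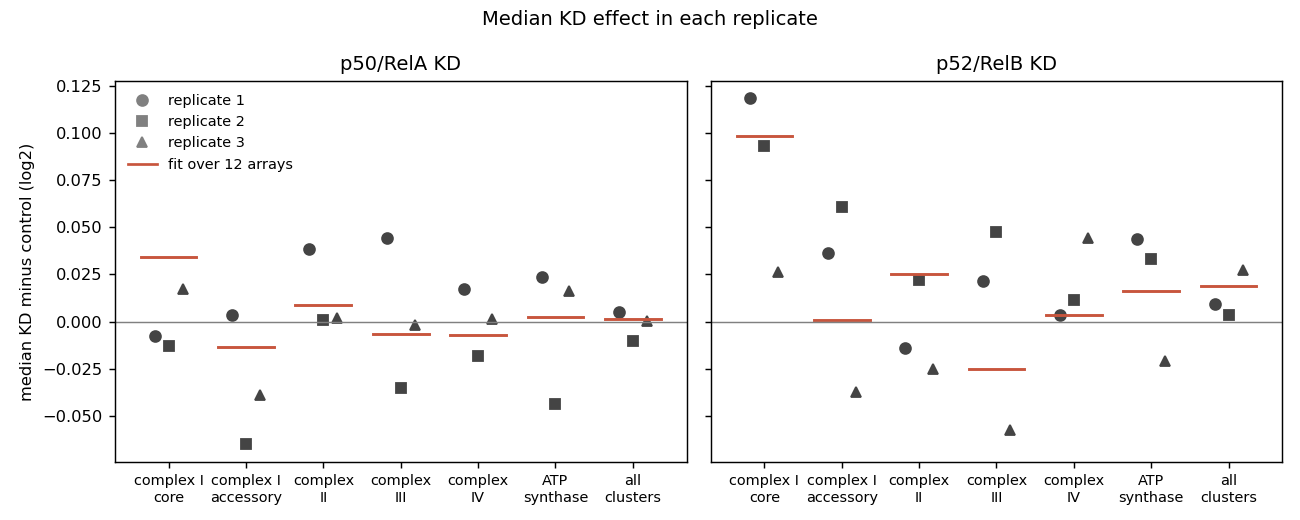
Median log2 difference, KD minus control, of the subunit clusters of each complex in replicates 1, 2 and 3, after p50/RelA KD and p52/RelB KD. After p52/RelB KD the complex I core had 0.12, 0.09 and 0.03, and the accessory clusters had 0.04, 0.06 and -0.04. Only the core in replicate 1 of p52/RelB KD lay beyond 0.1.

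The 2 siRNA sequences of a KD were set against each other as well. By limma, 0 members differed between them at an adjusted p below 0.05 after p50/RelA KD and 0 after p52/RelB KD, against 0% of all clusters in both. At an unadjusted p below 0.05, 9 members (11.1%) differed between the p50/RelA sequences, against 3.5% of all clusters, and 2 members (2.47%) between the p52/RelB sequences, against 9.54%. In control arrays the corresponding counts were 1 member (1.23%), against 2.27% of all clusters, and 0 members, against 0.994%. The members' median difference was -0.01 for sequence 1 and 0.00 for sequence 2 after p50/RelA KD, and 0.03 and -0.00 after p52/RelB KD.

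One array moved the calls of p52/RelB KD. The array of sequence 2 replicate 3 was the lowest of the 12 for 30 of the 81 members (37.0%), against 29.4% of all clusters, and the highest for 16 (19.8%), against 35.4%. Each member's value was also set against its own mean over the 12 arrays, and these deviations had an SD of 0.223 over the members in that array, against 0.0577 to 0.100 in the other 11. COX7B, a small subunit of complex IV, had 9.85, 9.78, 9.80, 10.01, 10.12 and 8.9997 in p52/RelB KD arrays, against 9.66, 9.71, 9.78, 9.63, 9.91 and 9.94 in control 2 arrays. The single array at 8.9997 set its difference of -0.01 ± 0.16, which was 0.17 without that array. NDUFB3, an accessory subunit of complex I, had 7.99, 8.21, 7.75, 7.81, 7.94 and 7.42 in p52/RelB KD arrays, against 7.89, 7.99, 7.54, 7.47, 7.73 and 7.91 in control 2 arrays. Its KD value was above the matched control in all pairs but that of the same array.

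Without this array, 6 members were called higher and 0 lower, while 14.3% of all clusters were called. They were NDUFB3 (0.19), COX7B (0.17), UQCRH, the hinge protein of complex III (0.16), NDUFV3 (0.15), NDUFV2 (0.14) and ATP5PF (0.14). COX6B1 kept an adjusted p of 0.0175 by limma, at -0.13 and so just under the 10% minimum. NDUFS3 (0.11, adjusted p = 0.0135), NDUFS7 (0.11, adjusted p = 0.0138) and NDUFA3 (0.12, adjusted p = 0.0324) likewise passed the limma test with sizes under 10%. The numbers of members below and above 0 were then 23 and 58 (71.6%), with a median of 0.03 against 0.01 for all clusters, of which 53.2% were above 0. SDHC showed the same array in 1 of its clusters, with 9.15, 9.22, 9.11, 9.28, 9.33 and 8.61 in p52/RelB KD arrays and 9.11 to 9.32 in control 2 arrays.

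**Figure D4:**
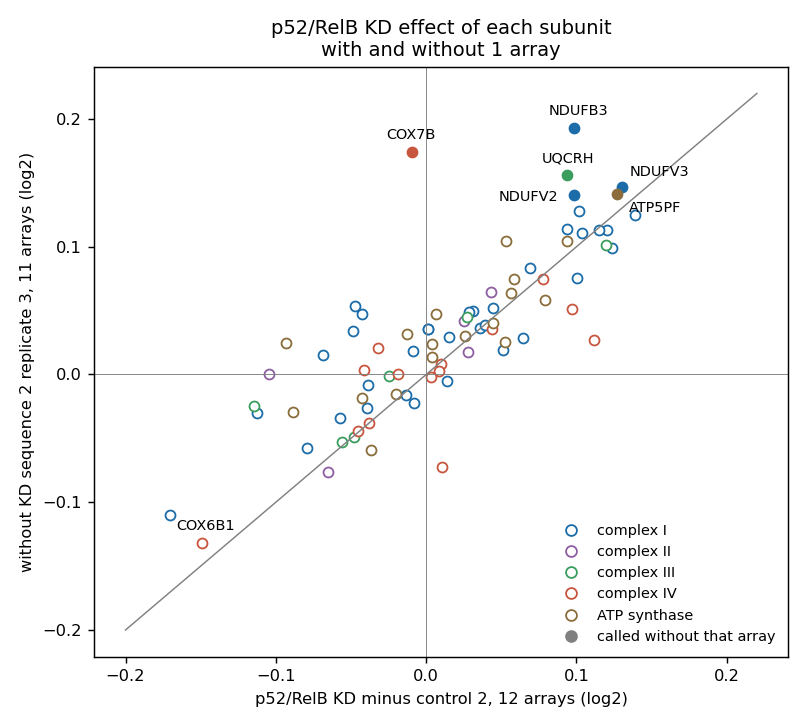
Log2 difference of each of the 81 subunit clusters, p52/RelB KD minus control 2, over all 12 arrays (x axis) and over 11 arrays without KD sequence 2 replicate 3 (y axis), coloured by complex, with filled points for the 6 called in the 11 arrays. COX7B moves most, with -0.01 over 12 arrays and 0.17 over 11.

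Isoforms and repeated clusters were compared next. COX4I1, the common isoform of the largest nuclear-encoded subunit of complex IV, averaged 9.40 ± 0.05 in p50/RelA KD arrays and 9.42 ± 0.05 in control 1 arrays, and 9.84 ± 0.08 in p52/RelB KD arrays and 9.88 ± 0.05 in control 2 arrays (SD, n = 6 each). Its HIF-linked counterpart COX4I2 averaged 7.34 ± 0.27 in p52/RelB KD arrays and 7.23 ± 0.07 in control 2 arrays, where the KD array at 7.82, again sequence 2 replicate 3, was highest. Its difference was 0.11 with that array and 0.03 without it. COX6A1 and the muscle isoform COX6A2 had 0.01 each after p52/RelB KD, and COX7A1, COX7A2 and COX7A2L had 0.10, -0.02 and 0.08, none of which passed the test. Without that array COX6A2 had -0.07, COX7A1 had 0.05 and COX7A2 had 0.00.

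Of the 7 genes with 2 clusters, the pairs of COX6A1 and NDUFV2 gave differences within 0.02 of each other in both experiments. The 2 NDUFB4 clusters held identical values in every array and are 1 measurement counted as 2 clusters. The 2 SDHC clusters had -0.10 and -0.07 after p52/RelB KD, which were 0.00 and -0.08 without KD sequence 2 replicate 3, and 0.01 and 0.03 after p50/RelA KD, and those of SDHD had 0.03 and 0.04 after p52/RelB KD. The 2 ATP5MK clusters had -0.07 and -0.02 after p50/RelA KD. Clusters of such pairs can share probes with near-identical copies of the gene elsewhere in the genome, so their levels are uncertain.

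The promoters of the members were searched on both strands for motifs of factors known at these genes. The RefSeq promoter table of GRCh38.p14 held 79 promoters for 66 of the 78 genes, some overlapping. The NRF1 motif GCGCATGCG was in 11 (13.9%), against 1.92% of all 35116 promoters of the same length, the ETS motif CCGGAAG in 21 (26.6%), against 10.3%, and the YY1 motif AAGATGGC in 12 (15.2%), against 2.89%. The HIF core ACGTG was in 19 (24.1%), against 21.4%, and the κB motif in 8 (10.1%), against 11.3%. The first 3 motifs were thus more frequent in the members' promoters, and the HIF core and the κB motif were about as frequent as in all promoters. By complex, the ETS motif was in 7 of 16 ATP synthase promoters (43.8%) and in 5 of 39 complex I promoters (12.8%). A match describes the letters of the window only.

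Genes around the respiratory chain were set beside the members by lists. After p50/RelA KD, 0 clusters were called in the lists of assembly factors (48 clusters tested), electron carriers (19), citric acid cycle (17), regulators and mtDNA expression (20), mitochondrial ribosome (77), carriers and inhibitor (8) and HIF-linked genes (11). Over all clusters 1.07% were called. The medians of the lists ran over -0.05 to 0.02. After p52/RelB KD, the same lists had 0 called among assembly factors, electron carriers, regulators, and carriers and inhibitor. Over all clusters 9.68% were called, 5.75% lower and 3.93% higher. In the citric acid cycle 1 of 17 was lower, IDH2, the NADP-dependent isocitrate dehydrogenase of mitochondria, at -0.29 (limma adjusted p = 0.00193). In the mitochondrial ribosome 1 of 77 was higher, MRPS11 (0.16, limma adjusted p = 0.0148), and 1 lower, MRPL45 (-0.16, limma adjusted p = 0.0378).

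In the HIF-linked list after p52/RelB KD, of 11 clusters, 7 were called lower and 0 higher, with a median of -0.26. Over all clusters 5.75% were called lower and 3.93% higher, with a median of 0.02. This list, like the others, was chosen with earlier results of these data known, so its counts are no test of the list. BNIP3 and BNIP3L, which direct mitochondria to mitophagy, had -0.76 each, PDK1, the kinase that keeps pyruvate out of the citric acid cycle, had -0.75, and MXI1, a MYC antagonist, had -0.34. The glycolytic genes PGK1 and LDHA had -0.26 each, and LONP1, a mitochondrial protease that degrades COX4I1, had -0.16. The only subunit on that list, COX4I2, had 0.11 ± 0.09 (limma adjusted p = 0.497), and 0.03 without KD sequence 2 replicate 3. ATP5IF1, which inhibits ATP synthase running in reverse, had 0.11 (limma adjusted p = 0.0444), under the 10% minimum. Without the array of sequence 2 replicate 3, the HIF-linked list had 7 lower and 1 higher, with LONP1 lost at -0.14 and SLC2A1, a glucose transporter, gained at -0.16. Over all clusters 14.3% were then called. The assembly factors had 0 lower and 2 higher, the mitochondrial ribosome 1 lower and 2 higher, and the citric acid cycle 1 lower and 1 higher. The regulators had 0 lower and 1 higher, and the carriers and inhibitor 1 lower and 0 higher.

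**Figure D5:**
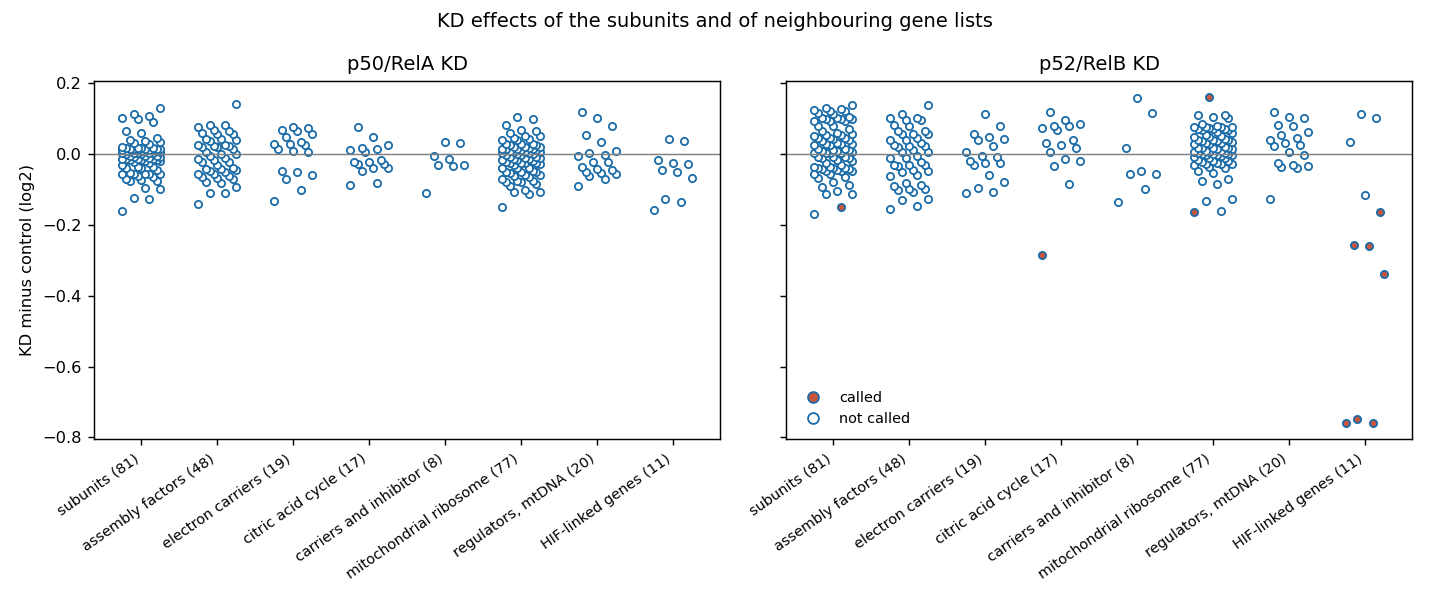
Log2 difference, KD minus control, of the clusters of the subunits and of 7 lists of related genes after p50/RelA KD and p52/RelB KD, 1 point per cluster. After p52/RelB KD the HIF-linked list has a median of -0.26, and the median of the subunits is 0.01.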

How the data were processed

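RNA of 24 L1236 cultures was hybridised to Affymetrix Human Gene 1.0 ST arrays. The deposited values are log2 expression values per transcript cluster, which the authors made by robust multi-array averaging (RMA), apart for the 2 experiments (version not given in the sources used here). Cluster symbols came from GEO's platform annotation and were updated through a RefSeq gene table. Of 33297 clusters, 19460 had 1 symbol and 1754 several. The study adjusted for covariates that it does not name and used a two-sample test with Benjamini-Hochberg adjustment. Here each experiment was fitted with limma 3.58.1 in R 4.3.3 (lmFit and eBayes, replicate as block), on single-symbol clusters at 6 or more in over 50% of the 12 arrays, with an adjusted p below 0.05 and a 10% difference for a call. The difference between KD effects was a contrast over all 24 arrays.

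Replicate numbers come from the labels and mark biological replicates. Deviations of same-numbered KD and control arrays from their group means correlated at 0.448, 0.195 and 0.251 in experiment 1 and 0.574, 0.268 and 0.377 in experiment 2. Scan batches were the replicates in experiment 1, and in experiment 2 one batch held replicate 3 and another replicates 1 and 2. The 6 arrays of an arm are 2 siRNA sequences in 3 replicates, so their number limits the precision and p-values treat sequences of 1 replicate as separate samples. The members and lists were chosen with earlier results of these data known. Genes were named when called, when lowest or highest of a complex in a KD, as isoforms or as genes with 2 clusters, and, from the lists, as the largest called changes. UQCRC2, the complex I core, ATP synthase subunits by position, other HIF-linked genes and genes moved by 1 array were named after their values were seen. The fits were tested on simulated data. Alternatives were the block, the filter, the normalisation, the siRNA sequences, the methods' own test, the scan batch and leaving out replicates or arrays. The lists, intervals, shares and medians without an outlying array were added after the data were seen.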

Additional observations from a re-analysis of the deposited data

Results flagged for a closer look

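Among the 6 arrays of a group, single values that lay far from the other 5 were looked for in 19 named clusters, which gave 76 groups. In 10 of these the gap to the nearest array, as a share of the group's range, exceeded Dixon's critical value. In groups not picked by their values, chance alone gives this in about 1 of 20. These clusters were named for calls or for the lowest or highest differences, and their groups share arrays. The 10 groups can therefore not be set against that rate. Sequence 2 replicate 3 of p52/RelB KD was lowest for NDUFC1, at 9.51, and for 1 cluster of SDHC, at 8.61. Sequence 1 replicate 3 of p52/RelB KD was highest for COX6B1, at 11.97. In p50/RelA KD, sequence 2 replicate 1 was highest for COX4I2, at 6.69, and lowest for NDUFC1, at 9.23, and sequence 2 replicate 2 was lowest for 1 cluster of SDHD, at 9.24. In control 1, sequence 2 replicate 2 was lowest for COX4I2, at 6.40, and highest for NDUFC1, at 9.64. In control 2, sequence 1 replicate 1 was highest for NDUFV3, at 10.01, and for UQCR10, at 9.89.

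The p52/RelB KD effect on NDUFV3 exceeded the p50/RelA KD effect by 0.20 on the log2 scale in the limma test of the difference. The experiments were run apart, and what part of the difference comes from that cannot be told apart from the dimer.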

How the results depend on the processing

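The count of members called after p50/RelA KD was 0 in all alternatives but 1. It was 1 (COX4I2) without control 1 sequence 2 replicate 2, so that leaving out single arrays gave 0 to 1. Without that array 1.31% of all clusters were called. After p52/RelB KD, where 1 was called, the count was 0 with no replicate block, arrays centred on their medians or sequences averaged. It was also 0 with sequence 1 or sequence 2 alone, with the methods' t-test on the deposited values and with the scan batch as block. In these settings 0.0311% to 8.78% of all clusters were called. The count was 2 with a low-value limit of 7 and with the methods' t-test adjusted for replicate, with COX6B1 lower and NDUFA3 higher. With a further quantile normalisation the count was also 2, but NDUFV3 and ATP5PF were higher and COX6B1 was not called. In the same order 12.1%, 10.2% and 10.4% of all clusters were called. The count was 3 with no minimum difference, against 10.3% of all clusters, and 6, all higher, without KD sequence 2 replicate 3, against 14.3%. Leaving out a replicate gave 0 to 8. The 8, without replicate 3, were 1 lower and 7 higher, both NDUFV2 clusters among them, against 12.7% of all clusters called. Leaving out single arrays gave 0 to 6, against 6.98% to 14.3% of all clusters.

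For the difference between the KD effects, where 1 was called, the count was 0 with centring, sequences averaged or sequence 1 or 2 alone. It was 2 with quantile normalisation and without both arrays named above, against 6.19% and 6.51% of all clusters. The count was 0 to 1 without a replicate and 1 to 2 without an array. The fall of COX6B1 after p52/RelB KD was lost as a call in 19 of 26 alternatives. The median of complex II after p50/RelA KD, 0.01, was 0.0410 in the arrays of sequence 1 and -0.0431 in those of sequence 2, and ran over -0.0180 to 0.0278 as single arrays were dropped. The other complex medians moved by less than the spread between replicates. The methods' t-test was not run for the difference. Arrays give no counts, so depth is unknown, and signals near 6 limit the isoforms COX6B2, COX7B2 and COX8C.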
